A study of Mus musculus with 9 samples.

Results

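The wild type baseline of a mouse embryonic lung study is described here, from the 3 wild type libraries among its 9 libraries. The members were chosen by label alone: the 3 libraries titled WT_265_1, WT_268_1 and WT_549_2, each whole lung RNA of an embryo at E18.5 (the embryonic day) with the genotype wild type. The other 6 libraries of the series come from Dnmt1 conditional knockout lungs and enter no value below. The strain, the sex and the litter of the embryos, and whether the wild types carried the transgenes of the mutants or received an inducer, are not stated in the labels. Nothing states that the 3 lungs came from separate litters, so every SD measures the spread between these 3 samples, which may be technical in part. With 1 group there was no contrast to test, and all values are descriptions.

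At this stage, shortly before birth, the mouse lung is in its saccular phase. The distal airspaces widen and their epithelium separates into flat alveolar type 1 cells, across which gas will pass, and cuboidal alveolar type 2 cells, which make surfactant, the mixture of lipid and protein that keeps airspaces open at the first breath. Around them lie a dense capillary bed, fibroblasts that deposit elastin and collagen, smooth muscle, pericytes and mesothelium, and resident macrophages arrive from the blood. Whole-organ RNA mixes all of these, and in such bulk samples fewer cells of a type and less RNA per cell cannot be told apart.

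The 3 libraries held 30562772 counts (WT_265_1), 31785040 counts (WT_268_1) and 32485816 counts (WT_549_2) over 27207 genes, and every set of 3 values below follows that order. A gene with 0 counts in all 3 could have up to 3 counts of 94833628, or 0.0316 CPM (counts scaled to library size), by counting error alone. Levels are given in RPKM (reads scaled to gene length and library size), as deposited, and errors are SDs over n = 3. Pairs of libraries had a Pearson r of 0.981 to 0.983 and a Spearman rho of 0.988 to 0.991 across 15346 genes, on log2 CPM. These correlations run across genes, which are not independent replicates, and the points share library and depth. Every pair differed by more than counting noise, with a median chi-square per gene of 2.99 to 4.35, so none was treated as 1 library deposited in duplicate; this does not show that they came from separate animals.

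The 250 bases before the start of 4 genes are shown because they stand for the 2 tissue signatures in the ranking, airspace epithelium and blood. The surfactant gene with the highest level, Sftpc, is not among them. Surfactant protein B (Sftpb) organises the surfactant film and surfactant protein A (Sftpa1) is a collagen-like lectin of the airspace. Hbb-bs and Hbb-bt are the paired adult beta-globin genes. Sequences are from RefSeq on GRCm38.p6, 5′ to 3′ on the gene's strand, with capitals for motif matches on either strand: CTCAAG (the core bound by NKX2-1, the lung epithelial homeobox factor), TATAAA (an element close to the start of some genes), CCAAT (an upstream promoter element), CACCC (bound by factors of the Krüppel-like family) and AGATAA (a site bound by erythroid zinc finger factors). Sftpb lies at chr6:72304360-72304609 (+), Sftpa1 at chr14:41131538-41131787 (+), Hbb-bs at chr7:103827929-103828178 (−) and Hbb-bt at chr7:103813924-103814173 (−).
Sftpb: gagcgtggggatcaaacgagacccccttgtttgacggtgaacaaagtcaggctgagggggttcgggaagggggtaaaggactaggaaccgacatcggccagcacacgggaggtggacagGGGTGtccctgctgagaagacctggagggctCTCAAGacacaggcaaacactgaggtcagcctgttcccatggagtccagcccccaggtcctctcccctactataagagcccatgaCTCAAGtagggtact
Sftpa1: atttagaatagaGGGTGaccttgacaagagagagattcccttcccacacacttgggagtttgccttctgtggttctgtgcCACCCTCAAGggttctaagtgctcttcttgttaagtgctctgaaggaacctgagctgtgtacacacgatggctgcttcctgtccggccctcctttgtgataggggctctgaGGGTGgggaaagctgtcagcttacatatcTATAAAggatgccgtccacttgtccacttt
Hbb-bs: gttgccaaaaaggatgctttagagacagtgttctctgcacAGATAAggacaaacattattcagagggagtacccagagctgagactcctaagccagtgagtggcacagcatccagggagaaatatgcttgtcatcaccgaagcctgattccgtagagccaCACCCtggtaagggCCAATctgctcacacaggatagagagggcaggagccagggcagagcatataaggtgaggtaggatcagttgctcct
Hbb-bt: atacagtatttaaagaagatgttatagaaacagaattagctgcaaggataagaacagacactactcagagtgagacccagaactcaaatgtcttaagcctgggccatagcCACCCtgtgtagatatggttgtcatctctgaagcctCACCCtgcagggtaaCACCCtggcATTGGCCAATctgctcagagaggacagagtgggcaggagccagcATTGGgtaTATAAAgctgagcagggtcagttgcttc

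CTCAAG was found in both surfactant windows, at 100 to 95 and at 15 to 10 bases before the Sftpb start and at 166 to 161 bases before the Sftpa1 start, where it shares 1 base with a CACCC match. It was found in neither globin window. Of 32851 RefSeq windows of this length, 13.3% held CTCAAG on either strand. Both globin windows held a CCAAT and a CACCC match (76 to 72 and 90 to 86 bases before the start in Hbb-bs, 75 to 71 and 89 to 85 in Hbb-bt), motifs held by 33.8% and 52.0% of all windows. The CACCC motif was matched in both surfactant windows too. AGATAA, found in 9.99% of windows, was matched only in Hbb-bs among the 4, and TATAAA, found in 12.4%, in Sftpa1 and Hbb-bt. With 1 base of shift, the Hbb-bs and Hbb-bt windows had 127 identical bases of 249 (51.0%), against 73 of 247 (29.6%) for Sftpb and Sftpa1 at their best shift of up to 10 bases. A match is a run of letters, not evidence of binding, and a window without one says nothing of the factor.

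Sftpc, the surfactant protein made by alveolar type 2 cells, had the highest mean RPKM, with either gene length, and the most counts. Its level was 6299, 4109.6 and 5341 RPKM, and it took 0.832% ± 0.160 of all counts (SD, n = 3). It lies on chromosome 14, from 70520949 to 70524081 (GRCm38). Library WT_265_1 was highest and WT_268_1 lowest, with 1.54-fold between them in normalised CPM. The next secreted products of the airspace were Cxcl15, a chemokine named for the lung, at 1113, 724 and 727 RPKM, and Scgb1a1, the club cell secretoglobin, at 1285, 542 and 731 RPKM. The lysozyme genes Lyz1 at 1139, 477 and 763 RPKM and Lyz2 at 904, 417 and 584 RPKM followed, neighbours on chromosome 10 whose reads the counting could split. In each of these 4 genes WT_265_1 was the highest library, as it was for 41.2% of the 15346 genes with a mean CPM of 1 or more.

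Mitochondrial transcripts filled much of the rest of the top. mt-Cytb, a subunit of respiratory complex III, stood at 4339, 3923 and 3435 RPKM and mt-Co1, the catalytic subunit of complex IV, at 4376, 3689 and 2965 RPKM, ranges that overlapped each other. The 16 mitochondrial genes analysed here together took 2.22% ± 0.264 of counts, highest in WT_265_1 and lowest in WT_549_2. Other genes of the mitochondrial genome are not among the 16, so this is not the whole mitochondrial share. Haemoglobin genes, from red cells in the vessels, ranked among the mitochondrial ones: Hbb-bs at 3149, 1672 and 2223 RPKM, Hbb-bt at 1231, 644 and 752 RPKM and Hba-a1 at 665, 329 and 434 RPKM. On merged exons (each exon base counted once) Hbb-bs (4241) lay above mt-Cytb (3903) and mt-Co1 (3679). The 9 haemoglobin genes took 0.509% ± 0.151 of counts, again highest in WT_265_1 and lowest in WT_268_1. Hba-a1 and Hba-a2 are near-identical copies, as are Hbb-bs and Hbb-bt in large part, so how counts fall within each pair is uncertain.

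Translation genes were another block. The 80 ribosomal protein genes took 2.87% ± 0.0962 of counts, and the elongation factor genes Eef2 and Eef1a1 stood at 775, 653 and 656 RPKM and 593, 516 and 516 RPKM. On merged exons Eef1a1 (1657) lay above Eef2 (894). Tmsb4x, the actin-sequestering thymosin, stood at 917, 788 and 871 RPKM. Mfap4, a microfibril protein of elastic fibres, was the only extracellular matrix gene among the 30 highest, at 489, 553 and 598 RPKM, lowest in WT_265_1. Counts, which grow with transcript length, gave a different order: the 10 genes with most counts were Sftpc, mt-Co1, Fn1 (fibronectin), mt-Cytb, Eln (elastin), Eef1a1, Hbb-bs, Col4a1 (basement membrane collagen), Macf1 (a giant cytoskeletal linker) and Eef2. They held 4.68% ± 0.417 of counts. The 1000 genes with most counts held 46.2% ± 0.673, and 1162, 1216 and 1240 genes made up the first 50% of counts in the 3 libraries.

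**Figure D1:**
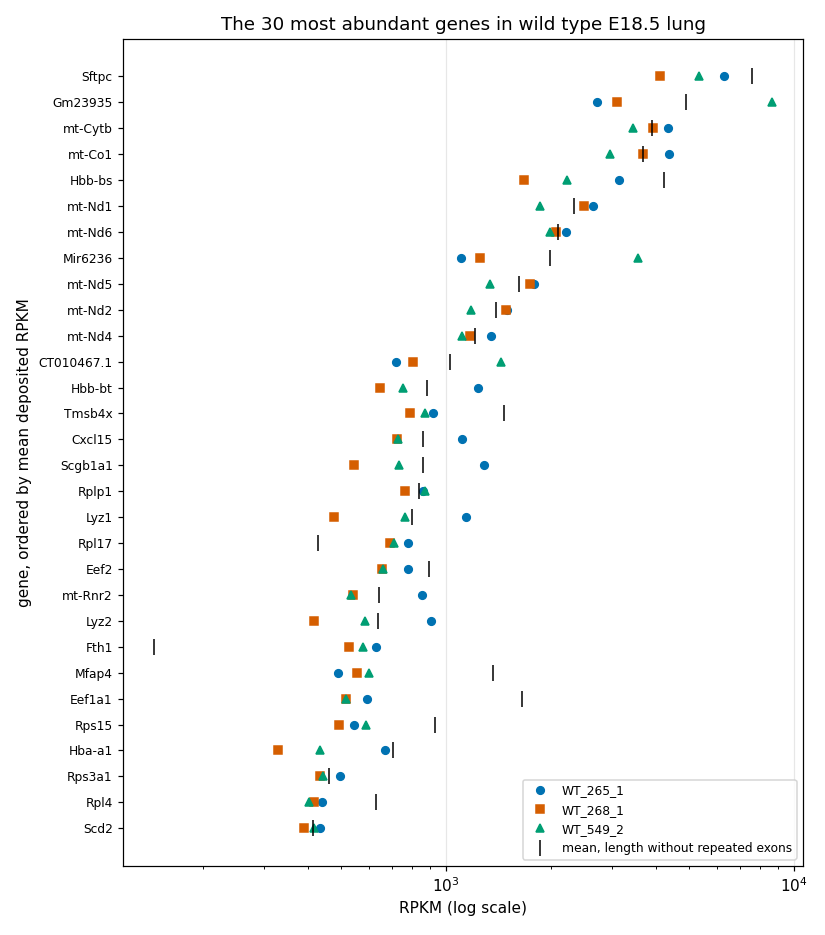
Deposited RPKM of the 30 genes with the highest mean RPKM (log axis), 1 symbol per wild type library, and black ticks for the mean when each exon base is counted once. Sftpc leads, WT_549_2 is far above the others in Gm23935 and Mir6236, and WT_268_1 is the lowest library in Lyz1, Lyz2, Scgb1a1 and the 3 globin genes shown.

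Entries for short or ribosomal RNA also ranked high and were uneven, and in WT_549_2 one of them exceeded Sftpc. Gm23935, annotated as a microRNA gene, stood at 2721, 3089 and 8644 RPKM, Mir6236 at 1105, 1253 and 3555 RPKM and CT010467.1, annotated as ribosomal RNA, at 715, 804 and 1435 RPKM. With Gm26917, a long noncoding RNA gene added after its values were seen, they took 0.336% ± 0.162 of counts, 0.225, 0.263 and 0.522%. WT_549_2 was highest in all of these 4 entries. Whether their reads come from ribosomal RNA was not tested.

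Of the 27207 genes, 11500 (42.3%) stood at 1 RPKM or more in all 3 libraries. At 10 RPKM there were 2417 genes, at 100 RPKM 130 and at 1000 RPKM 11. The median over all genes was 0.692 RPKM. Protein-coding genes, 17268 of the table, took 97.5% ± 0.3605 of counts, long intergenic RNA genes 0.919% ± 0.169 and pseudogenes 0.142% ± 0.00305. Among protein-coding genes with no exon base shared with another gene, 60.0% stood at 1 RPKM or more. Counts of list members above 1 RPKM are given below, to be read beside this share and the 42.3% of all genes.

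Gene length set part of this ranking. For 26228 genes (96.4%) the deposited length equalled the exon lengths of all annotated transcripts added together plus 1 base per exon, so exons shared by several transcripts were counted repeatedly. Against the length of the merged exons it was 1.29 times as long at the median, and more than 2 times as long in 7076 genes (26.0%). Ager, a receptor abundant in alveolar type 1 cells, ranked 241 at 73.0 ± 7.26 RPKM with the deposited length and 27 at 661 with merged exons. Fn1 moved from rank 235 to 41, and Sftpb from 49 to 23. Fth1, the ferritin heavy chain gene, went the other way, from rank 23 to 183, since its deposited length was the shorter one. Of the 30 highest genes 26 were the same under both lengths, and over the 11500 genes the ranks correlated with a rho of 0.878, as a description. With merged exons 12885 genes stood at 1 RPKM or more. Levels of different genes below are in deposited RPKM, with the merged-exon value (chosen after seeing the data) where it differs by more than 1.5 times and matters to the order.

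**Figure D2:**
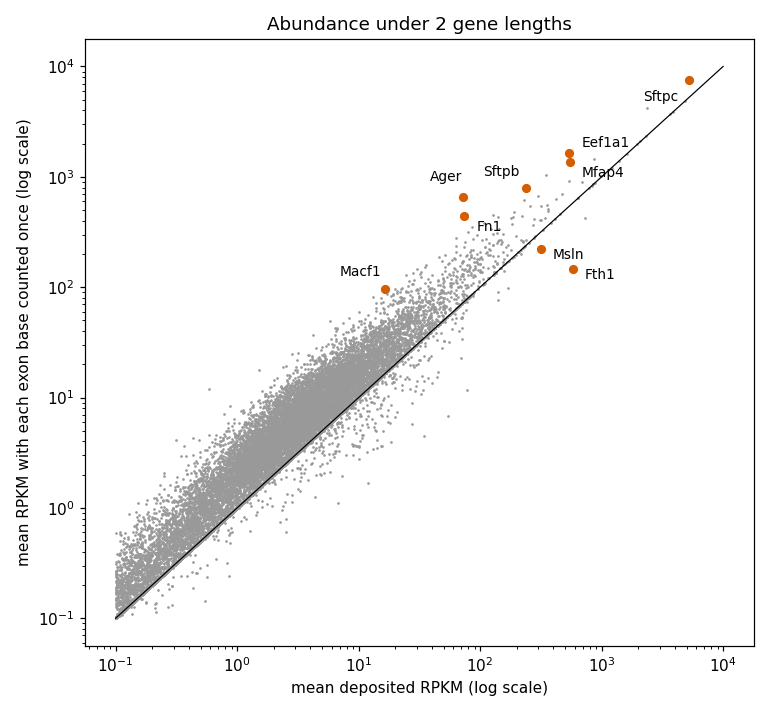
Mean RPKM with the deposited length (x, log axis) against mean RPKM with each exon base counted once (y, log axis), 1 point per gene at 0.1 RPKM or more on both, the line marking equal values. Most genes lie above the line: Ager moves from 73.0 to 661, while Fth1 and Msln lie below it.

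Alveolar type 2 genes were the highest cell type list. All 16 of its members stood above 1 RPKM, with a median of 85.2 RPKM. After Sftpc and Lyz2 came Slc34a2, the phosphate carrier of type 2 cells, at 430.1, 340.4 and 322 RPKM. Sftpa1 stood at 422, 244 and 275 RPKM. Sftpb stood at 279, 212 and 229.9 RPKM, or 796 on merged exons, so under that length it lies above Lyz2 (637), Slc34a2 (487) and Sftpa1 (407). Lamp3, a lysosomal membrane protein of lamellar bodies, stood at 293, 248 and 217 RPKM. Abca3, the transporter that loads lipid into lamellar bodies, stood lower at 24.2, 22.6 and 18.1 RPKM, and the least abundant member was Etv5, a transcription factor downstream of fibroblast growth factor, at 18, 16.9 and 16.4 RPKM. Hc, complement C5, was 1 of 2 members with their lowest value in WT_265_1, at 33.6, 53.1 and 68.5 RPKM.

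Alveolar type 1 genes were the second highest list, with a median of 51.9 RPKM and 15 of 15 members above 1 RPKM. Gprc5a, a receptor that retinoic acid induces, stood at 351, 329 and 299.8 RPKM. Emp2, a tetraspan membrane protein, stood at 190.4, 156 and 157 RPKM and Hopx, a homeodomain-only cofactor, at 148, 118 and 116 RPKM, while on merged exons Hopx (302) lay above Emp2 (169). Ager stood at 80.4, 65.8 and 72.7 RPKM, and it had the largest value of the list on merged exons. The water channel Aqp5 stood at 17.2, 11.7 and 14.5 RPKM. The exception in spread was Rtkn2, at 19.9, 8.11 and 5.65 RPKM, with 3.55-fold between libraries. The least abundant member was Igfbp2, an insulin-like growth factor binding protein, at 2.11, 3.21 and 2.74 RPKM.

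Conducting airway genes were carried by a few secreted products. Besides Scgb1a1, Scgb3a2, a second secretoglobin, stood at 356, 268.2 and 269.8 RPKM, and Cyp2f2, a club cell cytochrome P450, at 79.3, 56.2 and 36.9 RPKM. The mucin genes stood far below, with Muc5b at 0.0657, 0.140 and 0.0790 RPKM and Muc5ac at 0.0380, 0.0555 and 0.0316 RPKM. All 12 ciliated cell genes stood above 1 RPKM, with a median of 6.35. Foxj1, the master factor of motile cilia, stood at 23.9, 21.5 and 16.2 RPKM, and Sec14l3, a lipid transfer protein, led the list at 105, 84.9 and 62.7 RPKM. The dynein gene Dnah5 was lowest in WT_549_2, at 3.46, 3.34 and 1.22 RPKM.

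Basal and neuroendocrine genes were near the floor of this scale. Of 5 basal cell genes only Krt15 passed 1 RPKM, at 10.7, 11.7 and 9.15 RPKM, while the defining factor Trp63 stood at 0.0167, 0.0268 and 0.0316 RPKM and Krt5 at 0.0144, 0.0535 and 0.0128 RPKM. Of 10 neuroendocrine genes 2 did so, Ddc, which makes amine transmitters, at 1.53, 1.85 and 1.57 RPKM and Grp, gastrin-releasing peptide, at 1.36, 1.14 and 1.19 RPKM. The general epithelium list, whose members need not be shared by all epithelium, had a median of 23.6 RPKM. It was led by the keratin Krt18 at 141, 103 and 114 RPKM and the claudin Cldn18 at 105, 92.4 and 107 RPKM, which on merged exons lay above Krt18 (188 against 119.9).

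All 17 endothelial genes stood above 1 RPKM, with a median of 18.2. Their median CV was 12.9%, where that of all 15346 genes with a mean CPM of 1 or more was 10.1%. Cdh5, the junctional cadherin of endothelium, stood at 177, 139 and 147 RPKM and Cldn5, its tight junction claudin, at 109, 97.9 and 118 RPKM. The lowest was Vwf, von Willebrand factor, at 2.78, 2.80 and 1.88 RPKM. In 14 of the 17 genes WT_268_1 was the lowest library, where 32.6% of those genes were lowest in that library. Among capillary subtypes, Car4, a carbonic anhydrase of the cells called aerocytes, stood at 13.3, 5.98 and 9.74 RPKM, and Ednrb, an endothelin receptor, at 25.9, 20.7 and 20.1 RPKM. The aerocyte list had a median of 26.8 RPKM, though its highest member, Emp2, is also on the alveolar type 1 list. Its second highest, Tbx2, is given below among the lung transcription factors. With members on 2 or more cell type lists left out, the aerocyte median was 22.25 RPKM. Cd93, on the general capillary list, stood at 77.3, 75.0 and 84.5 RPKM. For arteries, Gja4 stood at 16.1, 12.3 and 15.0 RPKM. Lymphatic genes were led by Lyve1 at 48.4, 52.0 and 56.3 RPKM, which macrophages also express, while Prox1, the factor that defines lymphatic endothelium, stood at 0.698, 0.529 and 0.401 RPKM.

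Fibroblast genes of the alveolar wall had a median of 24.4 RPKM, with 18 of 19 above 1 RPKM in every library. Adh1, an alcohol dehydrogenase, stood at 101, 119 and 134 RPKM and Tcf21, a mesenchymal transcription factor, at 129, 115 and 102 RPKM. Tbx4, the lung mesenchyme factor, stood at 16.1, 18.4 and 17.8 RPKM and Fgf10, a growth factor that mesenchyme sends to the epithelium, at 15.9, 12.3 and 12.3 RPKM. Pparg, the lipid-storage regulator, was just outside the threshold at 1.36, 0.754 and 0.697 RPKM. Inmt, an amine N-methyltransferase, varied far more than any other member, at 79.9, 7.22 and 20.9 RPKM.

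Contractile and perivascular genes were lower. The smooth muscle list had a median of 5.01 RPKM with 10 of 14 above 1 RPKM. That share was 42.3% over all genes and 60.0% over protein-coding genes without shared exon bases. Acta2, smooth muscle actin, stood at 59.2, 92.5 and 77.7 RPKM and Myh11, smooth muscle myosin, at 3.36, 5.05 and 4.85 RPKM. In 8 of 14 members WT_265_1 was the lowest library, where 30.8% of all genes were. Tagln, a contractile protein usually abundant where Acta2 is, stood at only 1.69, 1.40 and 1.94 RPKM, with 67.9% of its exon bases also annotated to other genes on the opposite strand. All 13 pericyte genes passed 1 RPKM, among them Pdgfrb, their growth factor receptor, at 14.7, 15.3 and 15.8 RPKM, with a median variation of 6.49% between libraries. Mesothelium was led by Msln, mesothelin, at 525, 216 and 208 RPKM, while Wt1, its transcription factor, stood at 0.287, 0.260 and 0.229 RPKM. Cartilage genes split: Chad and Hapln1, matrix proteins, stood at 14.2, 9.73 and 8.26 RPKM and 6.43, 9.03 and 12.7 RPKM, while the defining Col2a1 and Acan stood at 0.0279, 0.0372 and 0.0324 RPKM and 0.0255, 0.0266 and 0.0141 RPKM.

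Elastic fibre genes had a median of 17.7 RPKM. Elastin, Eln, stood at 318, 325 and 316 RPKM with a coefficient of variation (CV, SD over mean of normalised CPM) of 1.32%, the smallest of the 10 genes with most counts. Lox, the enzyme that cross-links it, stood at 89.95, 101 and 82.7 RPKM, and of the 18 elastic fibre genes 17 passed 1 RPKM. Fbn2, the fibrillin of early microfibrils, was lowest in WT_265_1, at 10.8, 24.7 and 20.5 RPKM, while Fbn1 stood at 24.5, 26.8 and 22.3 RPKM. The 44 collagen genes took 1.62% ± 0.0976 of counts.

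Blood and immune genes divided by lineage. Macrophage and monocyte genes had a median of 3.58 RPKM, with 13 of 17 above 1 RPKM, beside 42.3% of all genes. The complement gene C1qa stood at 16.9, 12.2 and 14.1 RPKM and Csf1r, the receptor for their growth factor, at 6.73, 4.73 and 5.01 RPKM. Chil3, a chitinase-like protein that alveolar macrophages make, was uneven at 8.73, 1.17 and 0.892 RPKM, and Siglecf, an adult alveolar macrophage marker, stood at 0.0485, 0.0325 and 0.0382 RPKM. Neutrophil genes were led by S100a9 at 23.6, 8.57 and 11.4 RPKM, with all 6 members of 1 CPM or more over 2-fold apart between libraries, as were 5.12% of all 15346 genes. Lymphocyte genes were nearly silent: only Cd79b passed 1 RPKM, at 1.82, 2.04 and 2.19 RPKM, and Cd3e, of the T cell receptor complex, stood at 0.00644, 0.00597 and 0.00571 RPKM. In the erythroid list Alas2, the haem-synthesis enzyme of red cells, stood at 39.2, 22.2 and 24.2 RPKM and Hbb-bh1, an embryonic globin, at 0.0517, 0.144 and 0.0458 RPKM. The embryonic globin Hbb-y stood at 3.25, 3.62 and 1.86 RPKM, far under the adult Hbb-bs.

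Genes of other organs served as a check of the dissection. The cardiac-type muscle, skeletal muscle and neuron lists, which are counted among the cell type lists, are given beside them. Cardiac-type muscle genes had the most members above 1 RPKM, 6 of 11, beside 42.3% of all genes and 60.0% of protein-coding genes without shared exon bases. The atrial light chain Myl7 stood at 30.9, 39.6 and 56.0 RPKM and Actc1, cardiac actin, at 14.6, 19.04 and 22.7 RPKM. The cardiac factor Nkx2-5 stood at 0.0834, 0.213 and 0.203 RPKM and the ventricular light chain Myl2 at 0.0105, 0.0390 and 0.0140 RPKM. The cardiac-type list had a median of 2.06 RPKM, above the medians of the other lists in this paragraph. Which tissue these reads came from was not tested. Skeletal muscle genes had a median of 0.0732 RPKM, neurons 0.0506, liver 0.0192, thyroid 0.0292, thymus 0.00491, brain 0.0277 and germline 0.0323. Medians cover only the members analysed, which were 6 of 8 for skeletal muscle, 4 of 5 for thyroid, 3 of 5 for thymus and 4 of 5 for brain. Intestine and pancreas genes (4 of 7 analysed) had a median of 0.230 and oesophagus genes (5 of 6 analysed) 0.213. In each of those 2 lists and in the liver list 1 member passed 1 RPKM in all 3 libraries: Cela1, an elastase, at 2.12 ± 0.200 RPKM (SD, n = 3), the keratin Krt10 at 1.77, 1.29 and 1.40 RPKM and the iron carrier Trf at 4.62, 2.57 and 3.95 RPKM. Of the neuron list, Stmn2, a tubulin-binding protein, stood at 3.00, 2.26 and 3.01 RPKM. Albumin, Alb, stood at 0.574, 0.250 and 0.239 RPKM. Without WT_265_1 the liver median was 0.00758. Tex101 on the germline list and Zfp42 on the pluripotency list had 0 counts in all 3 libraries, which allows up to 0.0316 CPM.

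**Figure D3:**
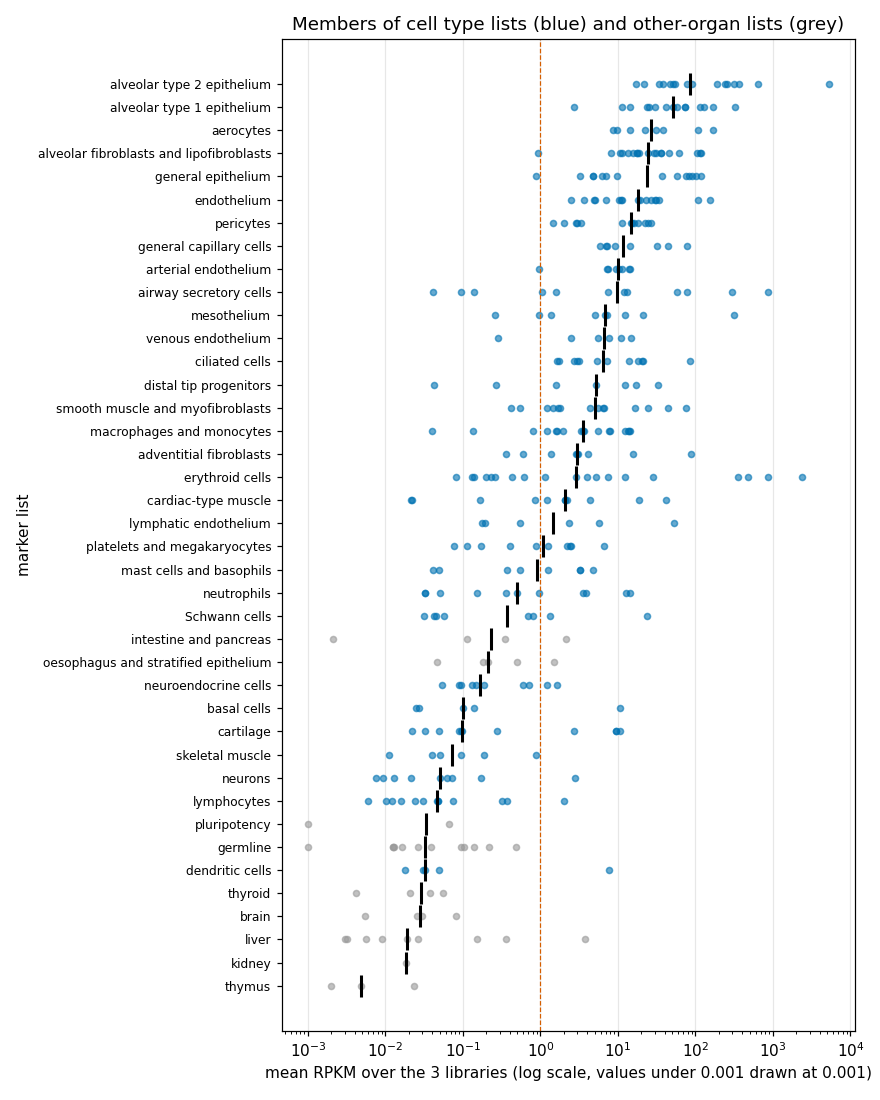
Mean deposited RPKM of every analysed member (points, log axis) of the 31 cell type lists and the 9 lists of other organs, ordered by list median (black bars), with a dashed line at 1 RPKM. Alveolar lists lie highest, at medians of 85.2 and 51.9 RPKM, 21 of the 31 cell type lists reach a median of 1 RPKM, and all 9 other-organ lists lie under it. The kidney list rests on 1 of its 5 members and the pluripotency list on 2 of 5.

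Transcription factors that pattern the lung were measured at a median of 7.05 RPKM, with 51 of 63 above 1 RPKM, beside 42.3% of all genes. The epithelial factor Nkx2-1 stood at 61.9, 65.7 and 62.2 RPKM, near Foxf1, the mesenchymal forkhead factor, at 57.4, 63.5 and 62.1 RPKM. Their ranges overlapped, though on merged exons Nkx2-1 (113) lay above Foxf1 (61.1). Tbx2, a T-box repressor, stood at 103, 112 and 106 RPKM, and Foxa2, a forkhead factor of the epithelium, at 7.59, 6.37 and 6.29 RPKM. Sox9, which marks distal tip progenitors, stood at 4.18, 5.63 and 5.86 RPKM, and Sox2, which marks the airways, at 4.89, 5.21 and 3.17 RPKM. Etv4, a second target of fibroblast growth factor, stood at 0.148, 0.317 and 0.348 RPKM.

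Hox genes, which record position along the body axis, were highest in paralogue groups 5 and 4, with summed levels of 43.2 and 10.6 RPKM. Of 25 Hox genes measured, 8 passed 1 RPKM in all 3 libraries, beside 42.3% of all genes. Other Hox genes of the mouse were not analysed here, so the sums cover only part of some groups. These 8 were all from paralogue groups 2 to 6, while the 2 genes analysed from group 1 summed to 0.435 RPKM. Hoxa5, whose loss impairs lung development, stood at 39.1, 38.3 and 44.5 RPKM, ahead of Hoxb4 at 6.93, 7.42 and 9.05 RPKM and Hoxa2 at 4.14, 4.35 and 4.75 RPKM. Just inside the threshold was Hoxb3 at 1.01, 1.34 and 1.16 RPKM, and just outside it Hoxb7 at 1.05, 0.851 and 1.15 RPKM and Hoxb6 at 0.987, 0.906 and 1.03 RPKM. The 6 genes analysed from groups 9 to 13 came only from groups 9, 10 and 13. The highest of them was Hoxd9, at 0.119, 0.1105 and 0.158 RPKM, and Hoxb13 and Hoxc13 had 0 counts.

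Signalling genes can be read as ligands, receptors and targets. Among fibroblast growth factors the ligands Fgf1 and Fgf10 stood at 16.5, 13.97 and 13.6 RPKM and 15.9, 12.3 and 12.3 RPKM, the receptor Fgfr4 at 20.4, 17.7 and 18.2 RPKM and the inhibitor Spry2, a target, at 28.9, 21.4 and 22.4 RPKM. Fgfr2, the epithelial receptor for Fgf10, stood at 6.18, 5.78 and 5.89 RPKM, or 33.6 on merged exons, where it lies above Fgfr4 (23.2). For WNT, the mesenchymal ligand Wnt2 stood at 29.6, 30.4 and 28.0 RPKM and the epithelial Wnt7b at 1.44, 1.78 and 1.47 RPKM, while the target Axin2 stood at 5.23, 4.63 and 5.26 RPKM. For hedgehog, the ligand Shh stood at 23.2, 22.5 and 23.5 RPKM, its inhibitor and target Hhip at 44.0, 44.8 and 44.9 RPKM and its effector Gli1 at 2.46, 3.57 and 3.10 RPKM. The hedgehog list summed to 89.96, 91.8 and 90.4 RPKM in the 3 libraries, most of it from Hhip and Shh, and its median CV was 8.01%. Vegfa, the endothelial growth factor, stood at 53.8, 54.9 and 47.0 RPKM and its receptor Kdr at 33.19, 26.5 and 32.3 RPKM.

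Genes of liquid transport and steroid response were measured in most cases above 1 RPKM, in 10 of 11 and 8 of 10 members, beside 42.3% of all genes. The sodium channel subunits Scnn1a, Scnn1b and Scnn1g, through which fetal lung liquid is absorbed, stood at 22.8, 18.7 and 16.2 RPKM, 10.3, 7.94 and 7.15 RPKM and 48.9, 34.6 and 32.2 RPKM. On merged exons Scnn1a was the highest of the 3, at 85.0 against 38.7 for Scnn1g. The chloride cotransporter Slc12a2, of liquid secretion, stood at 68.2, 75.7 and 55.9 RPKM. On merged exons Slc12a2 (39.9) lay below Scnn1a (85.0), the reverse of their deposited order. In 9 of the 11 ion and water transport genes WT_265_1 was highest, where 41.2% of all genes were. The glucocorticoid receptor Nr3c1 stood at 15.0, 15.2 and 13.8 RPKM, and Hsd11b1, which regenerates active steroid, at 30.2, 23.7 and 20.8 RPKM.

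Imprinted genes, expressed from 1 parental copy, had a median of 10.7 RPKM and 21 of 24 above 1 RPKM, beside 42.3% of all genes. H19 stood at 106, 112 and 103 RPKM, Mest at 55.6, 53.8 and 57.7 RPKM and Dlk1 at 57.3, 45.5 and 42.7 RPKM. Igf2, which neighbours H19 and is a fetal growth factor, stood at only 0.650, 0.865 and 0.487 RPKM. Of its exon bases 62.8% are also annotated on the same strand to Gm49394, which was not analysed here, and the effect of that on its counts was not tested. The maintenance methyltransferase gene Dnmt1, the gene deleted in the mutants of the series, stood at 2.92, 4.47 and 3.56 RPKM in these wild type lungs, lowest in WT_265_1, and its partner Uhrf1 at 0.825, 1.88 and 1.57 RPKM. Dnmt3a, a de novo enzyme, stood at 4.60, 4.99 and 4.34 RPKM, Dnmt3b at 0.213, 0.263 and 0.269 RPKM, and Dnmt3l, the germ cell cofactor, at 0.00987, 0.0305 and 0.0321 RPKM. On merged exons Dnmt1, Dnmt3a and Dnmt3b stood at 12.2, 11.7 and 2.07.

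Annotation overlap above 50% of bases went with low values across the table. Among protein-coding genes with no exon base shared with another gene 60.0% (6847 of 11419) stood at 1 RPKM or more and with up to 25% shared 67.0% (3286 of 4908), against 29.8% (64 of 215) where 50 to 75% of bases were shared and 6.73% (7 of 104) above 75%. By strand, the share at 50 to 75% was 14.7% (15 of 102) for bases shared on the same strand, the class of Igf2, and 43.6% (44 of 101) for the other strand, the class of Tagln. The labels do not say how reads in shared bases were assigned, and levels of Igf2 and Tagln are uncertain for that reason.

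Spread between the 3 lungs was small for most genes. Over the 15346 genes with a mean CPM of 1 or more, the median CV was 10.1% and 10% of genes stood above 27.8%. The common biological coefficient of variation, edgeR's estimate of spread beyond counting error, was 0.151. The median CV was 17.8% for genes of 1 to 10 CPM, 8.39% for 10 to 100, 7.86% for 100 to 1000 and 12.04% for the 74 genes above 1000 CPM, so the most abundant genes were not the steadiest. Highest and lowest library lay more than 2-fold apart in 785 genes (5.12%), as log2 CPM with a prior count of 2. Limited to protein-coding genes with an informative symbol, a restriction chosen after seeing the data, the count was 433. Each library bore on this count: without WT_265_1 328 genes passed, without WT_268_1 512 and without WT_549_2 392, and 2 libraries in place of 3 give a smaller range by construction.

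**Figure D4:**
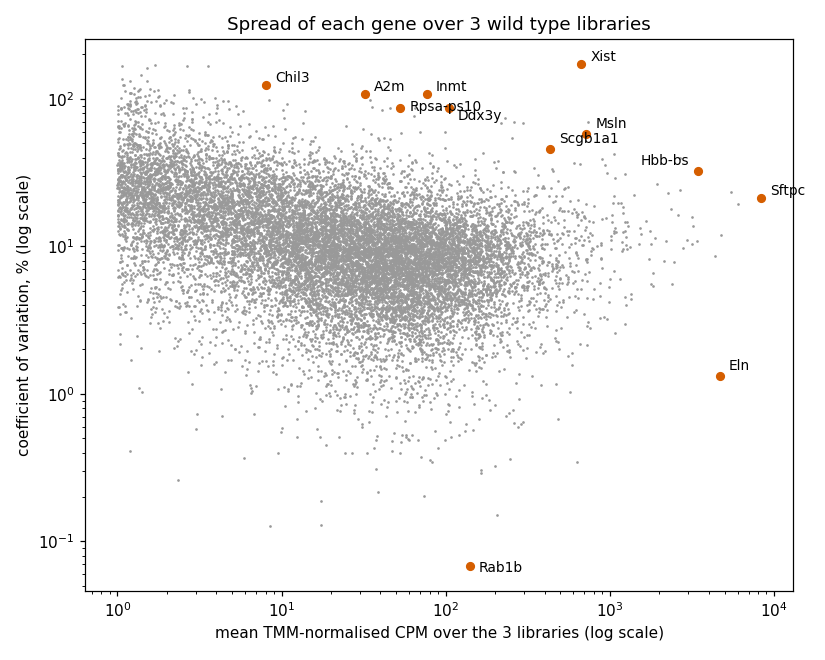
Coefficient of variation in percent (y, log axis) against mean TMM-normalised CPM over the 3 libraries (x, log axis), 1 grey point per gene with a mean CPM of at least 1 and named genes in orange. Xist, Inmt, A2m and Chil3 lie above 100%, while Eln, with more counts than nearly all genes, lies at 1.32%.

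The widest differences were in sex-linked genes. Xist, the RNA that silences an X chromosome in females, had 72, 64264 and 145 counts. Y-linked Ddx3y had 4735, 1 and 5100, Eif2s3y 2933, 1 and 3195, Kdm5d 2038, 1 and 2276 and Uty 1738, 0 and 1616. WT_268_1 was the library with high Xist and at most 1 count per Y-linked gene, and the other 2 were the reverse. The sex of the embryos is not in the labels, and any difference of WT_268_1 from the other 2 cannot be told apart from that split.

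Among the rest, several genes were near 0 in 1 library. The processed pseudogenes Rpsa-ps10 and Rps2-ps13 had 2283, 2602 and 9 and 2025, 1142 and 1 counts, with near-absence in WT_549_2. Gbp2b, an interferon-inducible GTPase, had 573, 407 and 2 counts, also nearly absent in WT_549_2. Clec12b, an inhibitory lectin receptor, had 1, 73 and 73 counts, nearly absent in WT_265_1. A2m, the protease inhibitor alpha-2-macroglobulin, had 70, 2231 and 806 counts, and Col4a6, a basement membrane collagen on the X chromosome, 74, 597 and 70, high only in WT_268_1. More than 4-fold apart were 134 of the 15346 genes (0.873%). Of them 49 (36.6%) were of the annotation class TEC, loci that await experimental evidence, against 2.66% of the genes compared. Protein-coding genes were 42 (31.3%), against 89.1%, long noncoding RNA genes 25 (18.7%), against 6.72%, and pseudogenes 18 (13.4%), against 1.28%. The 134 genes included 5 of the 6 Y-linked genes.

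The 10 steadiest genes of 100 CPM or more had a CV between 0.0684 and 0.562%. Rab1b, a GTPase of transport from the endoplasmic reticulum, stood at 71.4, 71.9 and 71.9 RPKM, with a CV of 0.0684%. At its 4127, 4485 and 4688 counts, counting error alone would give a larger CV, so this value does not measure its true spread. Sf3b2, a splicing factor, stood at 70.9, 71.4 and 70.9 RPKM, and Sar1a, which builds transport vesicles, at 29.0, 29.2 and 29.2 RPKM. Usp4 and Usp19, deubiquitinases, and Creb1, a cAMP-responsive factor, were also among the 10, which were chosen for their low SD.

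Library WT_265_1 differed from the other 2 in several lists at once. Of all 15346 genes, 41.2% were highest in it, 29.7% in WT_268_1 and 29.1% in WT_549_2, and 30.8%, 32.6% and 36.6% were lowest in them in turn. It was the highest library in 12 of 16 alveolar type 2 genes, 12 of 15 alveolar type 1 genes, 10 of 12 ciliated genes, 14 of 16 macrophage genes, 11 of 13 erythroid genes and 8 of 9 mesothelium genes. The alveolar type 2 list lay 0.21 above the mean of the 3 libraries at the median member on the log2 scale, and the erythroid list 0.48, where the median over all genes was 0.02. Interferon-stimulated genes were highest in it in 10 of 12 cases and lowest in WT_268_1 in 11 of 12, with Isg15, a ubiquitin-like protein, at 17.8, 5.30 and 10.7 RPKM. In the opposite direction, WT_265_1 was lowest in 17 of 20 cell cycle genes and WT_268_1 highest in 19 of 20, with Mki67, a proliferation antigen, at 22.3, 33.5 and 23.0 RPKM. The summed level of the 20 cell cycle genes was 117, 168 and 134 RPKM. The haemoglobin share of counts was 0.669, 0.369 and 0.490%, in the same order of libraries as the alveolar type 2 list, and its part in these shifts was not tested.

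**Figure D5:**
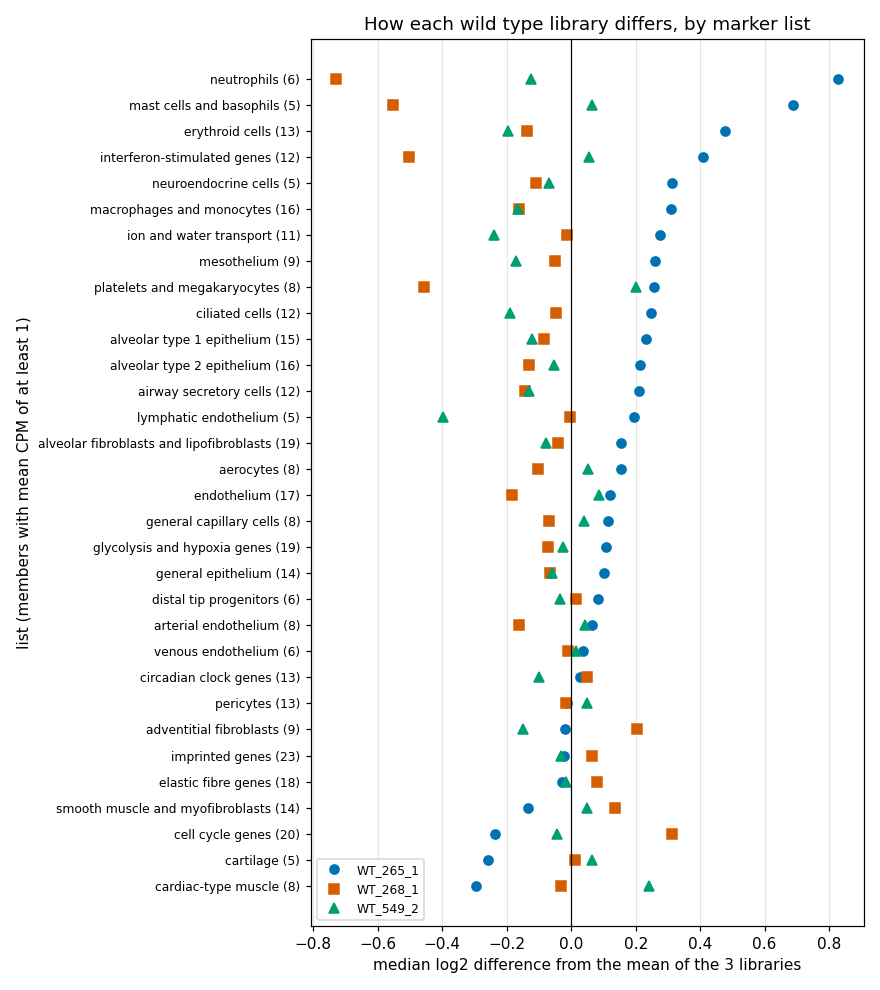
Median difference of each library from the mean of the 3 (x, log2 scale of TMM-normalised CPM) over the members of each list with a mean CPM of at least 1, given in brackets. WT_265_1 lies right of 0 for alveolar, ciliated, erythroid, macrophage, neutrophil and mast cell lists and left of it for cell cycle, cartilage, smooth muscle and cardiac lists. WT_268_1 is the highest of the 3 libraries for the cell cycle list. It is the lowest of the 3 for the neutrophil (-0.729), mast cell (-0.553) and interferon-stimulated (-0.504) lists.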

How the data were processed

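Whole lung RNA of 3 wild type embryos was sequenced with TruSeq libraries and single 75 nt reads, with 50 M intended for each, per the labels' protocols. The counts were deposited by the authors as whole numbers per gene, not normalised. The RPKM values were deposited by the authors and scale each count to the length column and to library sizes 1.03, 1.07 and 1.09 times the column total. The build was GRCm38.p6, with STAR, Trimmomatic 0.36, FastQC 0.11.8, edgeR 3.28.1 and cutadapt 2.5 as further tools, per the submitters' processing notes. Strandedness, annotation release, counting tool and the treatment of multiply mapping reads are not given in the sources used here. For paralogous, overlapping and antisense genes the values are therefore uncertain.

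Gene types, positions, merged exon lengths and overlaps came from GENCODE M21 on GRCm38, where 27197 of 27207 identifiers were found. CPM was computed from the counts with TMM factors (0.965, 1.01 and 1.03) in edgeR 4.0.16 (R 4.3.3), log2 values with a prior count of 2, and spread over 15346 genes with a mean CPM of at least 1. Shares and ranks were computed with pandas 2.3.3. Floors cover counting error only.

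Named genes were the 30 highest by mean RPKM, the 10 with most counts, the most abundant members and the least abundant member of each list, members near a threshold, Hox genes, Dnmt1, sex-linked genes, the 20 widest with an informative symbol and the 10 steadiest, and a selection of these is printed, with further list members that define a cell type or pathway chosen after their values were seen. The 62 lists hold 674 genes, of which 653 are in the table and 21 were not analysed here. The members and lists were chosen with earlier results of these data known. Alternatives were other scalings (including DESeq2 1.42.0 size factors), thresholds, lengths and leaving out each library. Values of some list members are not reported here.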

Additional observations from a re-analysis of the deposited data

How the results depend on the processing

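With 1 group and 3 libraries no difference could be tested, and depth limits only the genes of few counts. No paired analysis was possible because only wild type libraries were analysed. Requiring a mean CPM of at least 5 gave a median CV of 8.79% and 226 genes over 2-fold apart, and requiring only 1 count in every library gave 15.5% and 3746 genes; with no filter beyond 1 count the common biological coefficient of variation was 0.172. Protein-coding genes with an informative symbol, chosen after seeing the data, gave 433 genes over 2-fold apart. Leaving out each library in turn gave a biological coefficient of variation of 0.1305 to 0.163, a median CV of 7.73 to 8.97% and 328 to 512 genes over 2-fold apart, lower in CV and count because 2 libraries span less than 3. As shares of summed RPKM in place of counts, the 10 genes with most counts held 10.3%, mitochondrial genes 10.7%, haemoglobin genes 2.45% and ribosomal protein genes 5.65%, since RPKM weights short genes more. With mitochondrial and haemoglobin genes left out, the 10 genes with most counts held 4.22%. The number of genes at 1 RPKM or more stayed within 1.5 times of 11500, from 8715 (threshold of 2 RPKM) to 17195 (10 counts in every library). Of 31 cell type lists 20 to 25 reached a median of 1 RPKM or TPM. With DESeq2 size factors, upper-quartile factors or library totals in place of TMM, the median CV was 9.99 to 10.2% and 782 to 787 genes lay over 2-fold apart. In TPM the medians of 62 of 62 lists moved by more than 1 SD over libraries. TPM is another unit that raised every list (alveolar type 2 from 85.2 to 518, alveolar type 1 from 51.9 to 317), so this says nothing of their order. On merged exons the medians of 54 lists moved by more than 1 SD.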

Other observations

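Stress, clock and energy genes give further values of these lungs. Immediate early genes, which respond quickly to stimuli, stood at 43.0, 35.2 and 39.8 RPKM for Jun, 4.73, 3.13 and 2.55 RPKM for Fos and 0.635, 1.36 and 0.732 RPKM for Egr1. Of the 16 immediate early and heat shock genes 11 were above 1 RPKM in every library. That share was 42.3% over all genes and 60.0% over protein-coding genes without shared exon bases. The heat shock gene Hspa1a stood at 0.461, 0.298 and 0.219 RPKM. Of the clock genes, Per2, a repressor of the circadian loop, stood at 14.5, 16.3 and 15.4 RPKM and Arntl, its activator, at 1.94, 1.61 and 1.60 RPKM. The median CV of the 13 clock genes was 7.07%, beside 10.1% over all genes and 8.39% over genes of 10 to 100 CPM. For glycolysis, Pkm, pyruvate kinase, stood at 26.0, 27.7 and 27.2 RPKM and Ldha, lactate dehydrogenase, at 23.0, 19.1 and 20.5 RPKM. Zim1, an imprinted zinc finger gene, differed most of its list at 8.498, 3.88 and 2.89 RPKM, where H19 stood at 106, 112 and 103 RPKM.

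Mast cell genes were present at low levels and were highest in WT_265_1 in all 5 members of 1 CPM or more (41.2% of all 15346 genes were highest there), with the protease Cpa3 at 4.34, 2.17 and 3.14 RPKM. Platelet genes were lowest in WT_268_1 in all 8 such members (32.6% of all genes were lowest there), with Pf4, platelet factor 4, at 7.74, 5.40 and 6.84 RPKM. These lists moved with the haemoglobin share (0.669, 0.369 and 0.490% of counts), and its part in them was not tested.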
